A study of Arabidopsis thaliana with 12 samples.

Results

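Plants take up and redistribute mineral nutrients and metabolites through families of membrane transport proteins. ABC transporters use ATP to move hormones, lipids and secondary metabolites, whereas most nutrient carriers draw on the proton gradient across a membrane. Their genes are widely regulated by nutrient supply, and several families also respond to stress. Transporter genes were chosen here by symbol, from 19 families that cover ABC transporters, carriers of nitrogen, phosphate, sulfate, metals, potassium, sugars, amino acids and purines, and aquaporins. The rule also left out a stretch of chromosome 2, which removed 0 genes. It found 5 genes, each with 1 probe set, of 13286 genes named for a probe set. They were the nitrate transporter gene NRT2.5 (AT1G12940), the metal transporter genes ZIP6 (AT2G30080), ZIP9 (AT4G33020) and NRAMP5 (AT4G18790), and the purine permease gene PUP15 (AT1G75470). The other 15 families had 0 members. The 300 genes of the gene table whose symbol matches the pattern include 124 ABC transporter genes, but none of these was named for a probe set, so ABC transporters are not analysed here and the set is one of nutrient carriers only.

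Signal came from Affymetrix ATH1 arrays of RNA from shoots of Arabidopsis thaliana at 2 weeks of age, with 2 arrays for each of 6 genotypes. These were the wild type Columbia (WT), the single mutants cpr5 and npr1, the double mutants cpr5npr1 and cpr5scv1, and the triple mutant cpr5npr1svi1. All plants had 23 C, 70% humidity and 16 h of light a day, and no group received a treatment. CPR5 restrains cell death and defence, NPR1 carries the salicylic acid response, and scv1 and svi1 are second-site mutations in cpr5 and cpr5npr1 plants that the labels do not place in a gene. The labels do not say whether the arrays of a genotype came from separately grown plants, so the tests measure the spread between arrays only, and with 2 arrays the precision is low. Of the 8 leaf markers, only the Rubisco activase gene RCA had a named probe set, with a signal of 3779 to 7166. RCA (AT2G39730) lies in the stretch of chromosome 2 that was left out for members, and its highest array was a cpr5npr1svi1 array. Of the 7 root markers 3 had a named probe set. The root hair expansin genes EXPA7 and EXPA18 had 2.00 to 18.3 and 3.67 to 19.3, around the background of 7.76, which is the 95th percentile of control sets for bacterial genes. The third, the beta-glucosidase gene PYK10, was well above background in all 12 arrays, at 165 to 836, with 165 and 773 in the WT arrays, and did not pass the F-test (adjusted p = 0.55). The guard cell gene FMA had 54.8 to 91.4. The part of other cell types in the results was not tested. Fewer cells of a type and less RNA per cell cannot be told apart in such samples.

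None of the 5 genes differed between genotypes by the tests applied. NRAMP5 lay below the filter on low signal, which removes the dimmest 30% of probe sets, and 4 genes were tested. In limma's F-test over the 6 genotypes 0 of 4 passed a threshold of 0.05 after Benjamini-Hochberg adjustment, against 16.8% of all probe sets tested. The adjusted p was 0.68 for PUP15, 0.711 for ZIP9, 0.835 for NRT2.5 and 0.975 for ZIP6. At an unadjusted p below 0.05 the count was also 0 of 4, against 4693 of 15923 probe sets.

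Comparisons of single genotypes gave 0 called members in each of 10 contrasts, and 0 at an unadjusted p below 0.05. The share of all probe sets called was 8.71% in cpr5 against WT, 8.14% in cpr5npr1 against WT, 22.4% in cpr5scv1 against WT and 12% in cpr5npr1svi1 against WT. It was 5.12% in cpr5npr1 against npr1, 0.804% in cpr5scv1 against cpr5 and 1.15% in cpr5npr1svi1 against cpr5npr1. For npr1 against WT, cpr5npr1 against cpr5 and the interaction of cpr5 and npr1 it was 0.00628%, 0.044% and 0.0251%. With only 4 genes tested, a count of 0 is no result about transporters as a group.

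NRT2.5 encodes a high-affinity nitrate transporter that serves nitrate uptake by nitrogen-starved plants and nitrate loading into the phloem of leaves. Its signal in replicates 1 and 2 was 14.4 and 10.6 in WT, 11.1 and 12.2 in npr1, 20.1 and 7.30 in cpr5, 13.5 and 10.4 in cpr5npr1, 15.7 and 11.2 in cpr5scv1, and 17.0 and 21.4 in cpr5npr1svi1. The highest array was a cpr5npr1svi1 array, but a cpr5 array lay between the pair of that genotype, and the other cpr5 array was the lowest of all 12 and the only 1 below background. In order of their means the genotypes ran from cpr5npr1svi1, at 19.2 ± 3.17 (SD, n = 2), through cpr5, cpr5scv1, WT and cpr5npr1 to npr1, at 11.6 ± 0.745, and the arrays of every neighbouring pair overlapped. 

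Among the 9 comparisons of 2 genotypes that were tested, the largest difference of NRT2.5 was that of cpr5npr1svi1 over cpr5npr1, with a log2 change of 0.69 in limma (adjusted p = 0.76, SE 0.492). The log2 difference between the triple mutant and WT was 0.63 (SE 0.492, adjusted p = 0.485). The arrays did not overlap in either comparison, as was the case for 36.9% and 49.7% of all probe sets tested. In cpr5 against WT the log2 change was -0.03, with a 95% interval of -1.12 to 1.06, which spans 0.461-fold to 2.08-fold. The gap between the cpr5 arrays was larger than the range of the other 5 genotypes' means.

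ZIP6 and ZIP9 belong to the ZIP family, whose members carry zinc, iron and other divalent metals into the cytosol. ZIP9 is among the genes that Arabidopsis turns on under zinc deficiency. ZIP6 had 66.5 and 47.4 in WT, 56.3 and 49.6 in npr1, 59.3 and 41.0 in cpr5, 60.7 and 51.0 in cpr5npr1, 59.2 and 41.8 in cpr5scv1, and 50.7 and 48.1 in cpr5npr1svi1. All 12 arrays were well above background and all genotypes overlapped their neighbours in the order of means, which ran from WT at 57.0 ± 13.5 to cpr5npr1svi1 at 49.4 ± 1.85. In geometric mean, WT was the highest and cpr5 the lowest genotype, and they differed 1.14-fold.

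ZIP6 was the most tightly measured of the 5 genes. Its log2 change in cpr5 against WT was -0.19, with a 95% interval of -0.77 to 0.39, or 0.586-fold to 1.31-fold. The interval had a half-width of 0.58 in every comparison of 2 genotypes, and 0 lay inside each of them. Replicate 2 was lower than replicate 1 in 6 of 6 genotypes, by 0.34 on average on the log2 scale, which is more than the range of 0.19 between the genotype means. In a limma fit with the replicate number as a block, replicate 2 differed from replicate 1 at an adjusted p of 0.0551 for ZIP6, and 16% of all probe sets were called for that difference. The labels do not say what the replicate number marks.

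ZIP9 had 11.2 and 19.6 in WT, 16.0 and 13.8 in npr1, 10.5 and 13.5 in cpr5, 8.22 and 13.0 in cpr5npr1, 16.8 and 14.8 in cpr5scv1, and 14.5 and 21.0 in cpr5npr1svi1. Every array lay above background, the lowest, a cpr5npr1 array, only just. The means ran from 17.7 ± 4.57 in cpr5npr1svi1 through cpr5scv1, WT, npr1 and cpr5 to 10.6 ± 3.35 in cpr5npr1. Among neighbours in this order, the arrays of npr1 and cpr5 did not overlap and the other 4 pairs did.

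The triple mutant exceeded cpr5npr1 in ZIP9 by 0.76 (log2), with a 95% interval of -0.17 to 1.68 (adjusted p = 0.62). In cpr5npr1 against npr1 the log2 change was -0.53 (SE 0.418, adjusted p = 0.596), and in cpr5 against WT it was -0.32 (SE 0.418, adjusted p = 0.723). The difference between these values of the cpr5 effect, with and without npr1, had a log2 value of -0.21 with an adjusted p of 1.00, and its sign turned when WT replicate 1 (0.19) or cpr5npr1 replicate 1 (0.12) was left out. The WT arrays alone covered most of the range of ZIP9, as replicate 2 was 19.6 and replicate 1 was 11.2. ZIP6 and ZIP9 thus had their highest means in different genotypes, with no call in either gene.

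NRAMP5 belongs to the NRAMP family of proton-coupled carriers of divalent metals. In rice, the protein of that name takes up manganese and cadmium in roots. It was the only member removed by the filter, and its signal lay below background in 9 of 12 arrays. The values were 1.60 and 6.16 in WT, 5.65 and 1.88 in npr1, 11.3 and 10.1 in cpr5, 5.83 and 3.88 in cpr5npr1, 2.29 and 2.00 in cpr5scv1, and 10.2 and 4.80 in cpr5npr1svi1. Both cpr5 arrays exceeded background, and the third array above it was a cpr5npr1svi1 array.

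The cpr5 arrays of NRAMP5, at 10.7 ± 0.838, did not overlap those of WT, at 3.88 ± 3.23, of cpr5npr1, at 4.86 ± 1.38, or of cpr5scv1, at 2.15 ± 0.204. The share of all probe sets without overlap was not computed for these comparisons. It was 36.9% in cpr5npr1svi1 against cpr5npr1 and 49.7% in cpr5npr1svi1 against WT, so a lack of overlap is common. With the arrays below background raised to it, the geometric mean of cpr5 was 1.37-fold that of WT and of cpr5scv1. This ratio has no interval and does not allow for the spread between arrays. When all probe sets were fitted without a filter, cpr5 against WT had an adjusted p of 0.286 and cpr5scv1 against cpr5 an adjusted p of 0.341, the latter at an unadjusted p of 0.0161. NRAMP5 was not called in any of the 10 contrasts of that fit, nor in its F-test (adjusted p = 0.392). All arrays of WT, npr1, cpr5npr1 and cpr5scv1 lay below background, so these genotypes have no order.

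PUP15 belongs to the purine permeases, a plant family of which characterised members carry adenine, cytokinins and related bases. Its signal was 19.2 and 24.2 in WT, 33.7 and 19.7 in npr1, 25.5 and 18.5 in cpr5, 23.3 and 18.2 in cpr5npr1, 15.1 and 18.5 in cpr5scv1, and 22.6 and 32.2 in cpr5npr1svi1. The cpr5scv1 arrays were among the lowest and those of WT lay above them, but all 5 neighbouring pairs in the order of means overlapped. That order went from 27.4 ± 6.75 in cpr5npr1svi1 through npr1, cpr5, WT and cpr5npr1 to 16.8 ± 2.44 in cpr5scv1.

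For PUP15, the log2 change in cpr5scv1 was -0.38 against cpr5 (SE 0.355, adjusted p = 0.799) and -0.37 against WT (SE 0.355, adjusted p = 0.509). In the triple mutant against cpr5npr1 it was 0.39 (SE 0.355, adjusted p = 0.846). None of these differences exceeded the gap between the npr1 arrays, 33.7 and 19.7. In cpr5 against WT the log2 change was 0.01, with a 95% interval of -0.77 to 0.80.

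**Figure D1:**
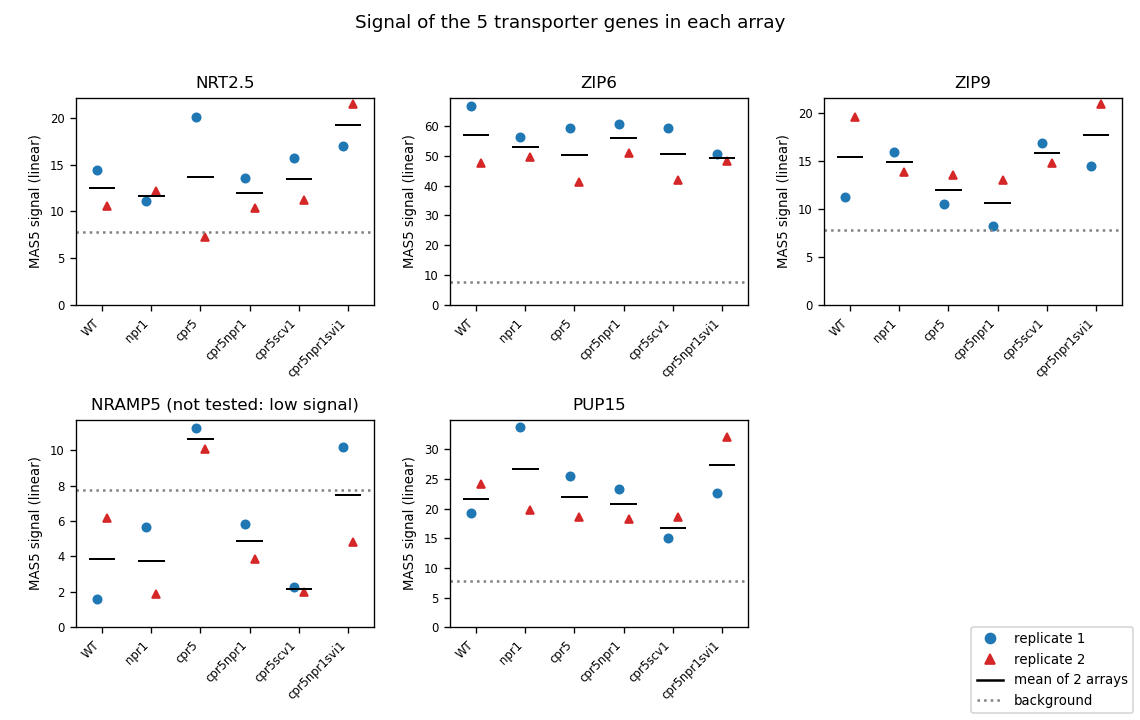
MAS5 signal on a linear scale (vertical axes, from 0) of the 5 transporter genes in each of the 6 genotypes; circles are replicate 1, triangles replicate 2, bars the mean of 2 arrays and the dotted line the background of 7.76. ZIP6 lies between 41.0 and 66.5 with replicate 2 lower in each genotype, and NRAMP5 exceeds background in 3 arrays.

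Set side by side over the genotypes, the 4 tested genes had median log2 changes of -0.11 in cpr5 against WT, -0.15 in cpr5npr1 against npr1 and -0.04 in npr1 against WT, and all probe sets had 0.02, -0.0015 and 0.01. In cpr5scv1 against cpr5 the median was 0.07, against -0.03 for all probe sets. In cpr5npr1svi1 against cpr5npr1 it was 0.54, with NRT2.5, ZIP9 and PUP15 positive and ZIP6 at -0.17, against -0.01 for all probe sets. The arrays of 3 of the 4 genes did not overlap in that comparison, against 36.9% of all probe sets, and the smallest adjusted p was 0.62. These were NRT2.5 and ZIP9, which were higher in the triple mutant, and ZIP6, which was lower. The arrays of PUP15 overlapped.

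The size of change that these arrays could show differed by gene. The 95% half-width on the log2 scale was 0.58 for ZIP6, 0.79 for PUP15, 0.92 for ZIP9 and 1.09 for NRT2.5, and it was 1.79 for NRAMP5 without a filter. In cpr5 against WT, the smallest log2 change called in any probe set was 0.52. These widths come from the fit without a replicate block, in which the replicate difference counts as spread. In that fit, a moderate change in NRT2.5, ZIP9 or PUP15 was therefore not detectable with 2 arrays per genotype.

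**Figure D2:**
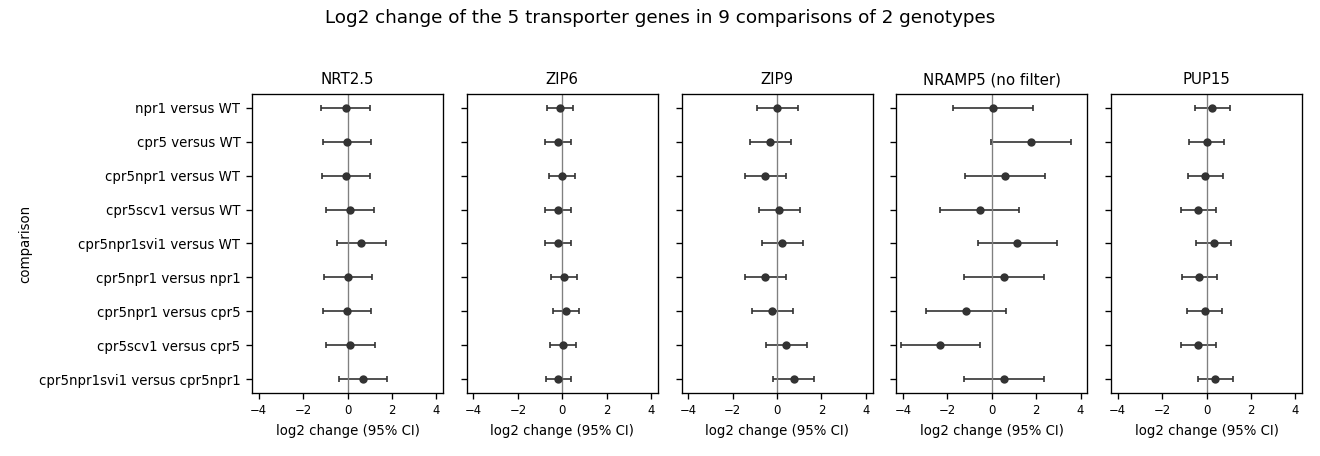
Log2 change (horizontal axes) with its 95% confidence interval from limma for the 5 transporter genes in 9 comparisons of 2 genotypes (vertical axis); NRAMP5 comes from the fit without a filter. All intervals of the 4 tested genes include 0, and that of NRAMP5 in cpr5scv1 against cpr5 does not, at an adjusted p of 0.341.

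Of 73 genes listed for nutrient assimilation, starvation responses, sugar use and proton pumps, 7 had a named probe set. In the F-test 4 of these 7 were called, against 16.8% of all probe sets: the sulfate assimilation genes APS3 and SIR and the sugar carrier genes TMT1 and TMT2. With only 7 genes, from lists chosen with earlier results of these data known, the count is no result about these pathways. The iron response regulator gene PYE and the vacuolar proton pump genes VHA-A2 and VHA-A3 were not called (adjusted p = 0.789, 0.836 and 0.895).

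Both measured sulfate assimilation genes were lower in cpr5 than in WT, where 2.15% of all probe sets were called lower. The ATP sulfurylase gene APS3, whose enzyme activates sulfate, fell from 277 ± 12.2 to 148 ± 0.0604 (log2 change -0.90, SE 0.184, adjusted p = 0.0128), and leaving out cpr5 replicate 1 or 2 raised the adjusted p to 0.0787 or 0.0775. The sulfite reductase gene SIR fell from 922 ± 83.7 to 584 ± 60.9 (log2 change -0.66, SE 0.144, adjusted p = 0.018), and its adjusted p was 0.0743 if WT replicate 2 was omitted and 0.148 or 0.0522 if cpr5 replicate 1 or 2 was. A fit of these 2 genotypes alone called neither gene, with 0.0634 for APS3 and 0.135 for SIR. Both genes were also called lower in cpr5scv1 against WT, APS3 with a log2 change of -0.99 (adjusted p = 0.00346) and SIR with -0.55 (adjusted p = 0.0205). There, 9.55% of all probe sets were called lower. In cpr5npr1 against WT both were called lower, where 327 of 15923 probe sets were. In cpr5npr1svi1 against WT APS3 was, where 649 were called lower. Of these further calls, only that of APS3 in cpr5scv1 held in a fit of the 2 genotypes alone. The call of SIR in cpr5npr1 was also lost whichever 1 array was left out. Quantile normalization (adjusted p = 0.124), no filter (0.0625) and no intensity trend (0.0924) ended it too. The call of APS3 in cpr5npr1svi1 was lost with quantile normalization (0.0511), no intensity trend (0.0665), or any 1 array of these 2 genotypes left out.

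In npr1 plants the cpr5 difference of APS3 ran the other way. Its signal was 90.0 and 110 in npr1, the lowest genotype, and 147 and 179 in cpr5npr1. The log2 change was 0.70 and was not called (adjusted p = 0.055), but it was with the replicate number as a block (adjusted p = 0.0235). The interaction of cpr5 and npr1 was 1.60 for APS3, with an unadjusted p of 8.06e-05 and an adjusted p of 0.162, which was 0.0387 without WT replicate 2. For SIR the log2 change in cpr5npr1 against npr1 was -0.51 (adjusted p = 0.0765).

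TMT1 and TMT2, carriers that load sugars into the vacuole, were called in opposite directions in cpr5scv1 against WT and in cpr5npr1svi1 against WT. In the triple mutant the log2 changes were 0.89 for TMT1 and -0.66 for TMT2, where 1255 of 15923 probe sets were called higher and 649 lower. A fit of the triple mutant and WT alone called neither gene (adjusted p = 0.0834 and 0.185). The TMT2 call in the triple mutant was also lost with no filter (0.0535) or no intensity trend (0.0551). Most of the fits that omitted 1 array did not call TMT2 there, with log2 changes of -0.84 to -0.48. The TMT1 call there was lost without cpr5npr1svi1 replicate 2 (log2 change 0.88). In cpr5scv1 against WT, TMT1 rose from 96.6 and 77.8 in WT to 151 and 161 (log2 change 0.85, SE 0.172, adjusted p = 0.00565), where 12.8% of all probe sets were called higher. TMT2 fell from 142 and 111 to 49.4 and 61.2 (log2 change -1.19, SE 0.185, adjusted p = 0.0013), where 9.55% were called lower. Both calls held in each of the 12 fits that omitted 1 array, but a fit of these 2 genotypes alone gave TMT1 an adjusted p of 0.0528.

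The gene table gives 11 genes as members of the NRT1/PTR family, carriers of nitrate, peptides, hormones and glucosinolates, which the symbol rule does not reach. They were picked from the annotation, and of 9 that passed the filter 2 were called in the F-test, against 16.8% of all probe sets, so the count is no result about the family. AT3G21670 (NPF6.4) had 901 and 798 in WT, 659 and 625 in npr1, 470 and 501 in cpr5, 406 and 346 in cpr5npr1, 152 and 163 in cpr5scv1, and 383 and 285 in cpr5npr1svi1. Both cpr5scv1 arrays lay below all others, and both WT arrays above all others. In cpr5scv1 against WT the log2 change of AT3G21670 was -2.43 (adjusted p = 1.38e-05), which held without any 1 of the 12 arrays. Against cpr5 it was -1.63 (adjusted p = 0.00326, or 0.055 without cpr5scv1 replicate 1), where 0.477% of probe sets were called lower. AT2G26690 (NPF6.2), a nitrate carrier of the leaf petiole, had 714 and 665 in WT and 299 and 268 in cpr5scv1 (log2 change -1.28, SE 0.198, adjusted p = 0.00124), which also held without any 1 array. Whether these genes differ in response from the 5 members was not tested, and the comparisons with WT share its 2 arrays.

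**Figure D3:**
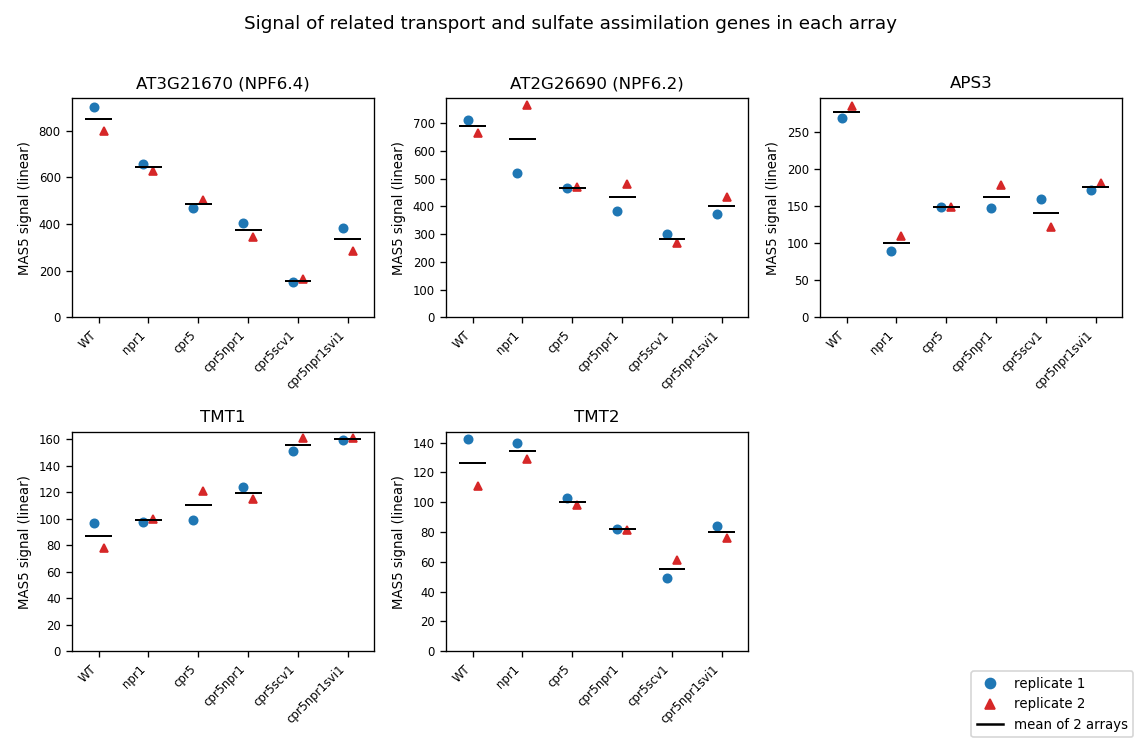
MAS5 signal on a linear scale (vertical axes, from 0) of 5 related genes in each of the 6 genotypes; circles are replicate 1, triangles replicate 2 and bars the mean of 2 arrays. AT3G21670, AT2G26690 and TMT2 are lowest in cpr5scv1, at 152 and 163, 299 and 268, and 49.4 and 61.2.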

How the data were processed

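Arabidopsis shoot RNA was measured on 12 ATH1 arrays, 2 for each of 6 genotypes grouped by sample title. The deposited intensity is linear MAS5 signal per probe set, per the submitters' processing notes. Its version and settings were not found in the sources used here. In the deposited values, each array had a mean of 100.01 after 2% was trimmed from each end, and the share of probe sets above background was 76.9% to 79.5%. Background was the 95th percentile of 27 bacterial control sets. No normalization or pseudocount was added. The 64 control sets and the dimmest 30% by mean log2 signal were left out, which left 15923 probe sets.

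Names came from the platform annotation, updated by gene ID through a gene table of TAIR10.1. Of 22746 probe sets 13513 had 1 gene, 503 several and 8730 none listed; 13436 matched a locus and 1551 of these had a symbol other than the locus code. Positions are given as locus codes only, and no sequences are shown.

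In R 4.3.3, limma 3.58.1 (lmFit, contrasts.fit, eBayes with intensity trend) fitted 6 group means, with 6 residual degrees of freedom. Adjusted p-values, including those in the closing section, are Benjamini-Hochberg over all probe sets tested. The method was tested on simulated data. Between all 15 pairs of genotypes the replicate differences correlated at 0.175 to 0.363, so the replicate numbers, from the titles, were taken to pair the arrays. The main fit has no replicate block, so its standard errors, intervals and adjusted p-values count the replicate difference as spread. Alternatives were a replicate block, quantile normalization, scaling to one median, a pseudocount of 32, no filter or a 50% filter, no intensity trend, only the groups compared, the dimmest probe set per gene, and leaving out each array.

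Members and lists were chosen with earlier results of these data known. Genes were to be named if called, up to 6 in each direction per contrast, or among the 10 lowest F-test p-values, or among the 2 brightest of a family; the last 2 parts of the rule name all 5 members. The contrasts printed for each, and all NRT1/PTR, OCT5 and pathway genes printed with values, were chosen after their values were seen. The promoter motif search that was planned was not run, as it needed sequences.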

Additional observations from a re-analysis of the deposited data

How the results depend on the processing

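The count of called members was 0 in each of the 10 contrasts under all 21 alternatives and in the F-test under 20, as a fit of only the groups compared is the same as the main one there. Of the alternatives 12 left out 1 array each, and all 241 counts were 0. With the replicate block, which the pairing of the replicate numbers calls for, the count was 0 in each. Among the tests of related genes that were compared with the block fit, only the calls of APS3 in cpr5npr1 against npr1 and in npr1 against WT changed. SIR in cpr5npr1 against npr1, and F-tests of related genes other than PYE, VHA-A2 and VHA-A3, were not compared. From 1 member (ZIP6, with a 50% filter) to 5 members (no filter) could be tested. The smallest adjusted p of any member was 0.263, for PUP15 in cpr5scv1 against WT after scaling to one median. These counts come from a small set, and do not show that the genes were unaffected.

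The sign of uncalled changes in cpr5 against WT was not stable. For PUP15 the log2 change of 0.01 became -0.21 with quantile normalization and -0.18 with every array scaled to one median, which moves the median of all probe sets by -0.19 in that comparison; for NRT2.5, -0.03 became 0.0255 with a pseudocount of 32. When 1 array was left out, the change ranged from -0.45 to 0.077 for ZIP6, -0.22 to 0.24 for PUP15, -0.72 to 0.0837 for ZIP9 and -0.76 to 0.70 for NRT2.5. For the interaction of ZIP9 it ranged from -0.61 to 0.19. The other contrasts of tested members printed with their own value kept their sign. As every member has 1 probe set, choosing the dimmest set changed nothing. NRAMP5 could be tested only without a filter. The number of arrays limits the precision throughout.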

Other observations

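AT1G68570 (NPF3.1), of the NRT1/PTR family, was higher in cpr5 than in WT, at 384 and 393 against 242 and 149 (log2 change 1.03, adjusted p = 0.0329). Omitting WT replicate 2, or either array of cpr5 or cpr5scv1, ended that call (0.0531 to 0.149), as did scaling to one median (0.0546), a fit with no intensity trend (0.0582) and a fit of the 2 genotypes alone (0.113). For APS3, npr1 was not called against WT (log2 change -1.48, adjusted p = 0.0611), but it was with the replicate block (0.0246) and without WT replicate 2 (0.0096).

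OCT5, an organic cation transporter gene outside the rule, was called lower in cpr5scv1 against WT, where 9.55% of all probe sets were. It is among 15 other transporter genes picked from the gene table. Of the 9 of them that were tested, 1 was called higher there (TMT1) and 2 lower (TMT2 and OCT5). TMT1 and TMT2 are the sugar carrier genes already counted among the pathway genes, so only OCT5 is a further call. In that comparison 12.8% of all probe sets were called higher. OCT4 went the other way from OCT5 without a call (log2 change 0.84, adjusted p = 0.0664). The signal of OCT5 was 37.7 and 39.5 in WT, 60.2 and 57.5 in npr1, and 23.8 and 17.6 in cpr5scv1, a log2 change of -0.91 against WT (SE 0.243, adjusted p = 0.0214). It did not hold if WT replicate 1 (0.0621), WT replicate 2 (0.0679) or cpr5scv1 replicate 2 (0.144) was omitted, or in a fit of the 2 genotypes alone (0.106).

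A probe set assigned to 2 genes, which is not named here, carried a matching symbol for 1 of them. Its signal was 427 and 441 in WT and 494 to 960 in the 10 arrays of the mutants, so that both WT arrays were the lowest of all 12. In npr1 against WT its log2 change was 0.98, without a call (adjusted p = 0.328), and in cpr5npr1 against npr1 -0.06. This probe set was called in cpr5scv1 against WT (log2 change 1.07, SE 0.203, adjusted p = 0.00391), also without any 1 array. It was also called in cpr5npr1 against WT (log2 change 0.93, adjusted p = 0.0184), but not if WT replicate 1 (0.0707) or either cpr5npr1 array (0.0948 and 0.0782) was omitted, nor in a fit of the 2 genotypes alone (0.0703). The cpr5npr1svi1 call (log2 change 0.72, adjusted p = 0.0435) was lost in 8 of 12 fits that left out 1 array and after scaling to one median (0.117). No filter (0.0572), no intensity trend (0.0762) and a fit of the 2 genotypes alone (0.12) ended that call too.

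Replicate 2 was lower than replicate 1 in 6 of 6 genotypes for ZIP6, in 4 for NRT2.5 and in 3 for PUP15, and higher in 4 of 6 for ZIP9. In the block fit over all probe sets, 1095 were higher and 1446 lower in replicate 2.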
